A study of Mus musculus with 4 samples.

Results

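The comparison described here sets mouse intestinal organoids treated with 4-hydroxytamoxifen (4OHT) and collected at day 6 against organoids treated the same way and collected at day 4. Its members are the 2 arrays labelled as 4OHT treated, chosen by those labels, of 4 arrays in the series. The other 2 arrays, from untreated organoids at day 4 and at day 6, share no array with this comparison and are given beside it. All 4 groups came from organoids with floxed Apc alleles (Apc fl/fl). The 4OHT groups received the drug for 24 h to induce recombination of Apc, and the labels call them Apc-deficient. Each group was 1 array, so no group had replicates, no p-value was computed, and a difference between the days holds every difference between 2 single arrays. The arrays are not stated to come from separate cultures. The sources used here name neither the Cre recombinase nor the promoter that drives it. Organoids without floxed Apc that received 4OHT were not analysed here, and recombination of Apc cannot be told apart from other actions of 4OHT.

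Intestinal organoids are cultures of pure epithelium in which stem cells of crypt-like buds give rise to absorptive enterocytes and to secretory Paneth, goblet and enteroendocrine cells. The Apc protein holds together the cytoplasmic machinery that tags beta-catenin for destruction. When Apc is lost, beta-catenin accumulates, binds TCF factors and switches on Wnt target genes, which in the crypt maintain the stem cell and progenitor state. A comparison between the days after recombination asks how expression in such organoids moved on with time in culture.

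Values named as intensities are the deposited linear values of a gene's brightest probe set, a group of short probes against 1 transcript region. Differences are day 6 minus day 4 of log2(intensity + 16) after quantile normalization of the pair of arrays, which gives both arrays the same distribution. A difference of 1 is 2-fold on that scale, and the added 16 understates the fold of dim genes. Genes whose levels were 2-fold or more apart are called higher or lower, among the 13198 of 18193 genes that reached 20.9 on any of the 4 arrays. The words describe these arrays and carry no test.

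Apc itself had an intensity of 57.7 at day 4 and 169.6 at day 6 with 4OHT, and 27.2 and 99.6 without it. In the brightest Apc probe set the level was above that of the untreated array on both days, and higher at day 6 in both arms. That probe set gave a difference of 0.94 with 4OHT (1.21 untreated). Another gave 1.40 (0.48 untreated) and the third past the filter gave -1.52 (-1.77 untreated). In the probe set at 1.40 the 4OHT array of day 4 (33.9) was below the untreated one (49.7). Neither the deleted exons nor the positions of these probes are given in the sources used here, so the Apc values test neither the recombination nor the labels.

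The epithelial identity of the cultures was plain on both days. Epcam, an adhesion molecule of epithelial cells, had an intensity of 891 at day 4 and 4549 at day 6 with 4OHT, and 906 and 5080.0 without it. E-cadherin (Cdh1) went from 848 to 2392 with 4OHT, keratin 8 (Krt8) from 7398 to 8404 and villin (Vil1), a microvillus protein, from 721 to 1536. Markers of other cells were low. The 12 fibroblast and muscle markers summed to 302 at day 4 and 172 at day 6 with 4OHT (316 and 167 untreated), and none of them passed 59.4 on either 4OHT array. The 7 endothelial markers summed to 115 and 73.2, and the defining leukocyte gene Ptprc had intensities of 10.9 to 6.42. The sum of the 11 immune markers, 2361 and 2013, was nearly all Lyz2, a lysozyme that Paneth cells also make.

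The arrays of the 2 days differed in more than single genes. The median intensity of all probe sets was 21.9 at day 4 and 19.5 at day 6 with 4OHT, while the range from the 5th to the 95th percentile was 5.90 and 6.73 on the log2 scale. All 18 probe sets of the bacterial and phage hybridization controls were lower at day 6, by a mean difference of -1.07 as deposited (-2.26 untreated), and so were all 24 probe sets of the poly-A controls, by -1.06 (-2.89 untreated). The gap between 3′ and 5′ probe sets, which grows when copies are short because labelling starts at the 3′ end, was 3.90 at day 4 and 2.34 at day 6 for Actb with 4OHT, and 2.29 and 1.42 for Gapdh. The untreated arrays moved the same way, from 2.96 to 1.72 for Actb and from 1.42 to 0.86 for Gapdh. The part of these shifts in the results below was not tested, and day cannot be told apart from any batch that goes with it.

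With 4OHT, 1281 of these 13198 genes (9.71%) were called higher at day 6 and 1065 (8.07%) lower. As deposited, without quantile normalization, the counts were 2216 (16.8%) and 370 (2.8%). The higher genes thus made up 54.6% of the called genes after quantile normalization, 85.7% as deposited and 91.4% after centring both arrays on their medians. The median difference over these genes was -0.15 after quantile normalization, 0.04 as deposited and 0.14 after median centring. The direction of any gene or list near 0 therefore depends on the scaling, and the values below are read against the median of the same scaling. Only 41.4% of these genes were above 0 after quantile normalization (51.9% as deposited), so counts of members below 0 are read against that share. Counts of called list members are likewise read against the 9.71% and 8.07%. Among the genes of the lists described below, all 105 called higher were also 2-fold higher as deposited, but only 23 of the 61 called lower were 2-fold lower.

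Most of the genes called with 4OHT were also called without it. In the untreated pair, 1643 genes (12.4%) were higher at day 6 and 1692 (12.8%) lower. Of the genes higher with 4OHT, 926 were also higher without it, which is 72.3% of the first list and 56.4% of the second. Of the lower genes, 819 were shared, 76.9% of those with 4OHT and 48.4% of those without. No gene was 2-fold higher in one arm and 2-fold lower in the other, and only 11 of the higher and 7 of the lower genes had the opposite sign in the untreated pair. Across the 13198 genes the differences of the 2 arms had a Pearson correlation of 0.848 and a Spearman correlation of 0.829. This is a description across genes, which are not independent, and the arms share the days and whatever went with them.

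**Figure D1:**
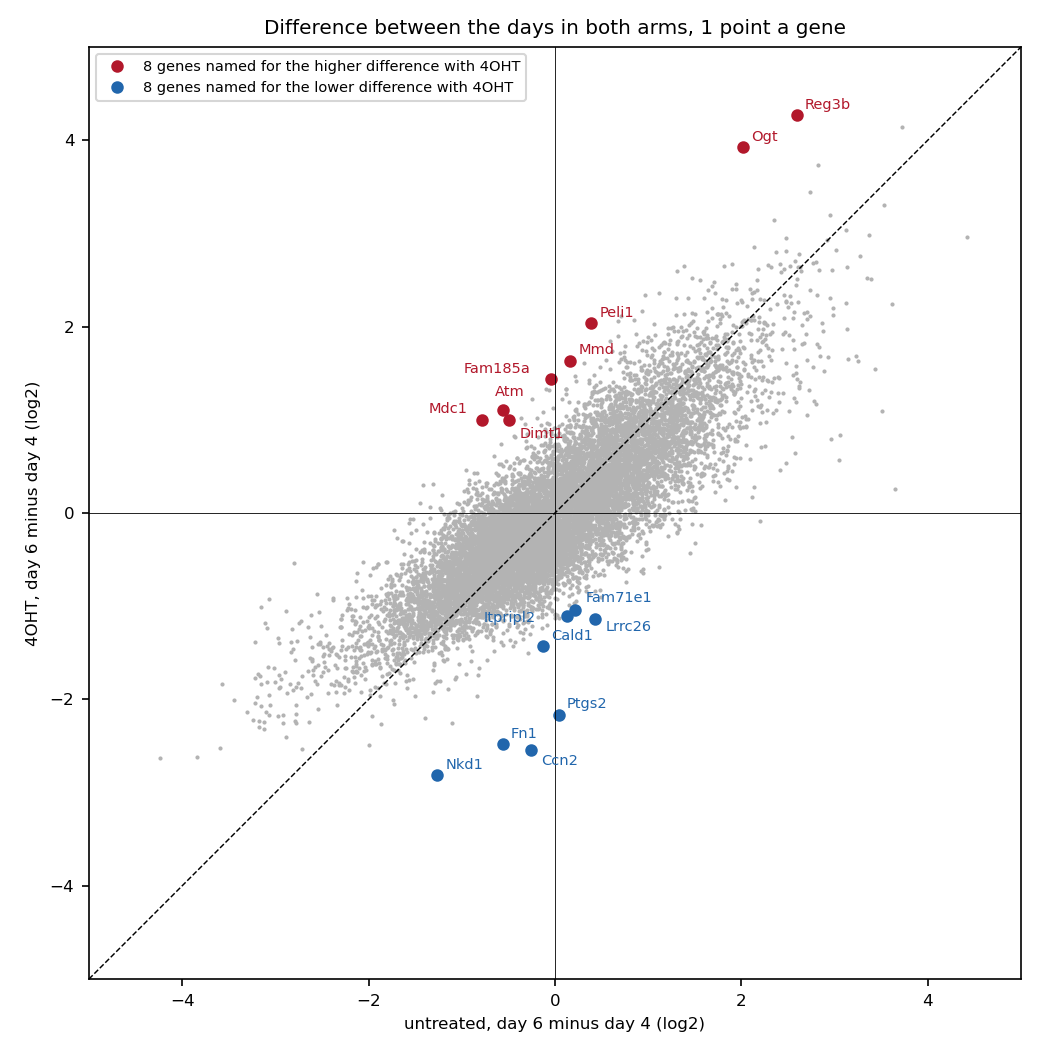
The difference between day 6 and day 4 in log2(intensity + 16) with 4OHT (vertical axis) against that in untreated organoids (horizontal axis), 1 grey point for each of 13198 genes, with the dashed line where both are equal. The cloud follows the diagonal, while the 8 red genes, such as Reg3b at 4.27 against 2.59, lie above it and the 8 blue genes, such as Ccn2 at -2.55 against -0.26, lie below it.

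The only repeat measurement within an array is a gene that several probe sets read. Among the 5798 genes with several probe sets past the level filter, the SD of the 4OHT difference between probe sets of a gene had a median of 0.47, and a 90th percentile of 1.07. For the 703 such genes called higher, all probe sets gave a positive difference in 389 (55.3%), and of their 1207 other probe sets 23.6% were also 2-fold higher and 5.05% were 2-fold lower. For the 680 called lower, all probe sets were below 0 in 360 (52.9%), and of 1243 other probe sets 10.9% were also 2-fold lower and 9.17% were 2-fold higher. Sox4, a transcription factor of crypt progenitors, shows the split. Its brightest probe set went from 694 to 3093 with 4OHT, a difference of 1.73, while its 6 other probe sets past the filter gave -0.52 to -1.78. In the untreated pair the brightest Sox4 probe set also differed by 1.67, and another went from 1645 to 493. Unless other probe sets are given beside it, a value below is that of the brightest one alone.

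**Figure D2:**
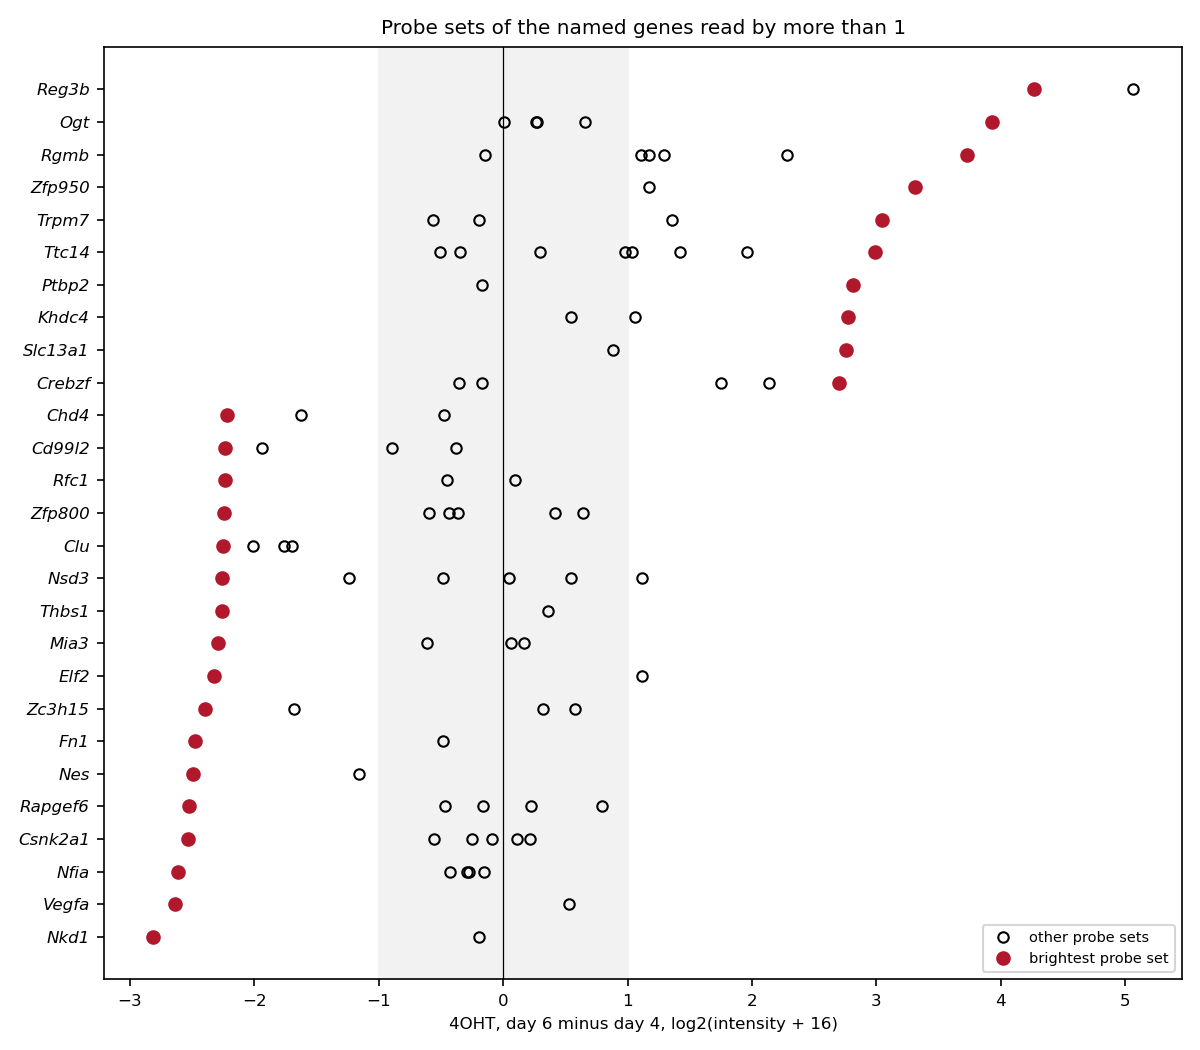
The difference between day 6 and day 4 with 4OHT on the log2 scale (horizontal axis) for every probe set past the level filter of 27 genes named below, 1 gene a row, with filled points for the brightest probe set, open points for the others, and differences under 2-fold shaded. The probe sets of Clu and Reg3b lie close together, while those of Ogt, Csnk2a1 and Elf2 spread from the brightest one to 0 or beyond.

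The 20 genes with the largest positive differences ranged from 2.70 to 4.27 with 4OHT and from 2.02 to 4.42 without it, and all 20 were 2-fold higher in both arms. Enterocyte products led them. Reg3b, a secreted antimicrobial lectin, had an intensity of 163 at day 4 and 4582 at day 6 with 4OHT, and 1219 and 10462 without it. The day-4 array with 4OHT was the lowest of the 4, and the difference of 4.27 with 4OHT stood beside 2.59 without it. The other Reg3b probe set gave 5.06.

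Enpep, the brush border glutamyl aminopeptidase, had an intensity of 45.1 at day 4 and 1321 at day 6 with 4OHT, and 193 and 4216 without it, a difference of 4.14. Tmigd1, an immunoglobulin-domain protein of epithelial membranes, went from 105 to 1757 with 4OHT (3.44), and the imino acid transporter Slc6a20a from 16.5 to 263 (2.96, and 4.42 untreated). Both days' levels of these 3 genes were lower with 4OHT than without it, and the day-6 array was the higher one in each arm. The sulfate transporter Slc13a1 (2.76), the trypsin inhibitor Spink1 (2.80) and the lysosomal protease cathepsin S (Ctss, 2.86) also belonged to this group, as did Cyp4f14, Mep1b, Cyp2c55 and Cyp3a25, described below with their families.

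The other genes of the group, apart from Rgmb, were of general cell function. Rgmb, a co-receptor for bone morphogenetic proteins that marks crypt stem cells, had an intensity of 19.4 at day 4 and 506 at day 6 with 4OHT, and 19.4 and 278 without it. It was just under the median of all probe sets on both day-4 arrays, and 5 of its 6 probe sets past the filter gave a positive difference, 3.73 in the brightest and -0.14 in the lowest. Ogt, the enzyme that adds N-acetylglucosamine to nuclear and cytosolic proteins, differed by 3.93 in its brightest probe set and by 0.01 to 0.66 in the others. The deubiquitinase Usp33 (3.15) and the splicing regulator Ptbp2 (2.81, and -0.17 in a second probe set) were also among the 20, as were Zfp950, Khdc4, Trpm7, Ttc14 and Crebzf, of which the last 3 each had 2 other probe sets below 0. Of the 10 genes here with several probe sets past the filter, 5 had all in 1 direction, and in 3 only the brightest was 2-fold higher.

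The 20 genes with the largest negative differences ranged from -2.81 to -2.22 with 4OHT, and all were below 0 without it, from -4.24 to -0.26, with 18 of the 20 at least 2-fold lower there too. Nkd1, a feedback inhibitor of Wnt signalling that binds Dishevelled, stood first. Its intensity was 473 at day 4 and 75.2 at day 6 with 4OHT, and 72.9 and 29.4 without it, so that the 4OHT array of day 4 was far above the other 3. The difference was -2.81 with 4OHT and -1.26 without it, and a second, dimmer Nkd1 probe set gave -0.20.

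Clu, the secreted chaperone clusterin, had an intensity of 4132 at day 4 and 1153 at day 6 with 4OHT, and 1093 and 217 without it. Each day-4 array was above the day-6 array of its arm, and each 4OHT array was above its untreated counterpart. All 4 Clu probe sets agreed, at -2.25 to -1.70. The surface antigen mesothelin (Msln) went from 153 to 26 with 4OHT and the matrix protein fibronectin (Fn1) from 162 to 21 in its brightest probe set. Both were high only on the 4OHT array of day 4 (untreated 38.2 and 35.5 at day 4). A second, dimmer Fn1 probe set gave -0.49 with 4OHT and -0.72 untreated.

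Vegfa, the angiogenic growth factor, had an intensity of 507 at day 4 and 97.3 at day 6 with 4OHT, and 1047 and 66.1 without it, with both day-4 arrays above both day-6 arrays. Its brightest probe set differed by -2.63 with 4OHT and its other one by 0.53. Several widely expressed nuclear regulators were also read unevenly by their probe sets. The kinase subunit Csnk2a1 gave -2.53 in the brightest of 6 probe sets and -0.55 to 0.22 in the others, the transcription factor Nfia -2.61 and -0.15 at the highest of 5, and Elf2 -2.32 and 1.11. The chromatin remodeller Chd4 (-2.22) was below 0 in all 3 of its probe sets. Of the 17 genes in this group with several probe sets, 7 had all in 1 direction, and in 11 only the brightest was 2-fold lower. Rapgef6, Zc3h15, Mia3, Nsd3, Zfp800 and Rfc1, each with at least 1 other probe set above 0, and Nes, Sprr1a and Cd99l2 made up the rest with Ccn2 and Thbs1, described with the YAP and TEAD targets.

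**Figure D3:**
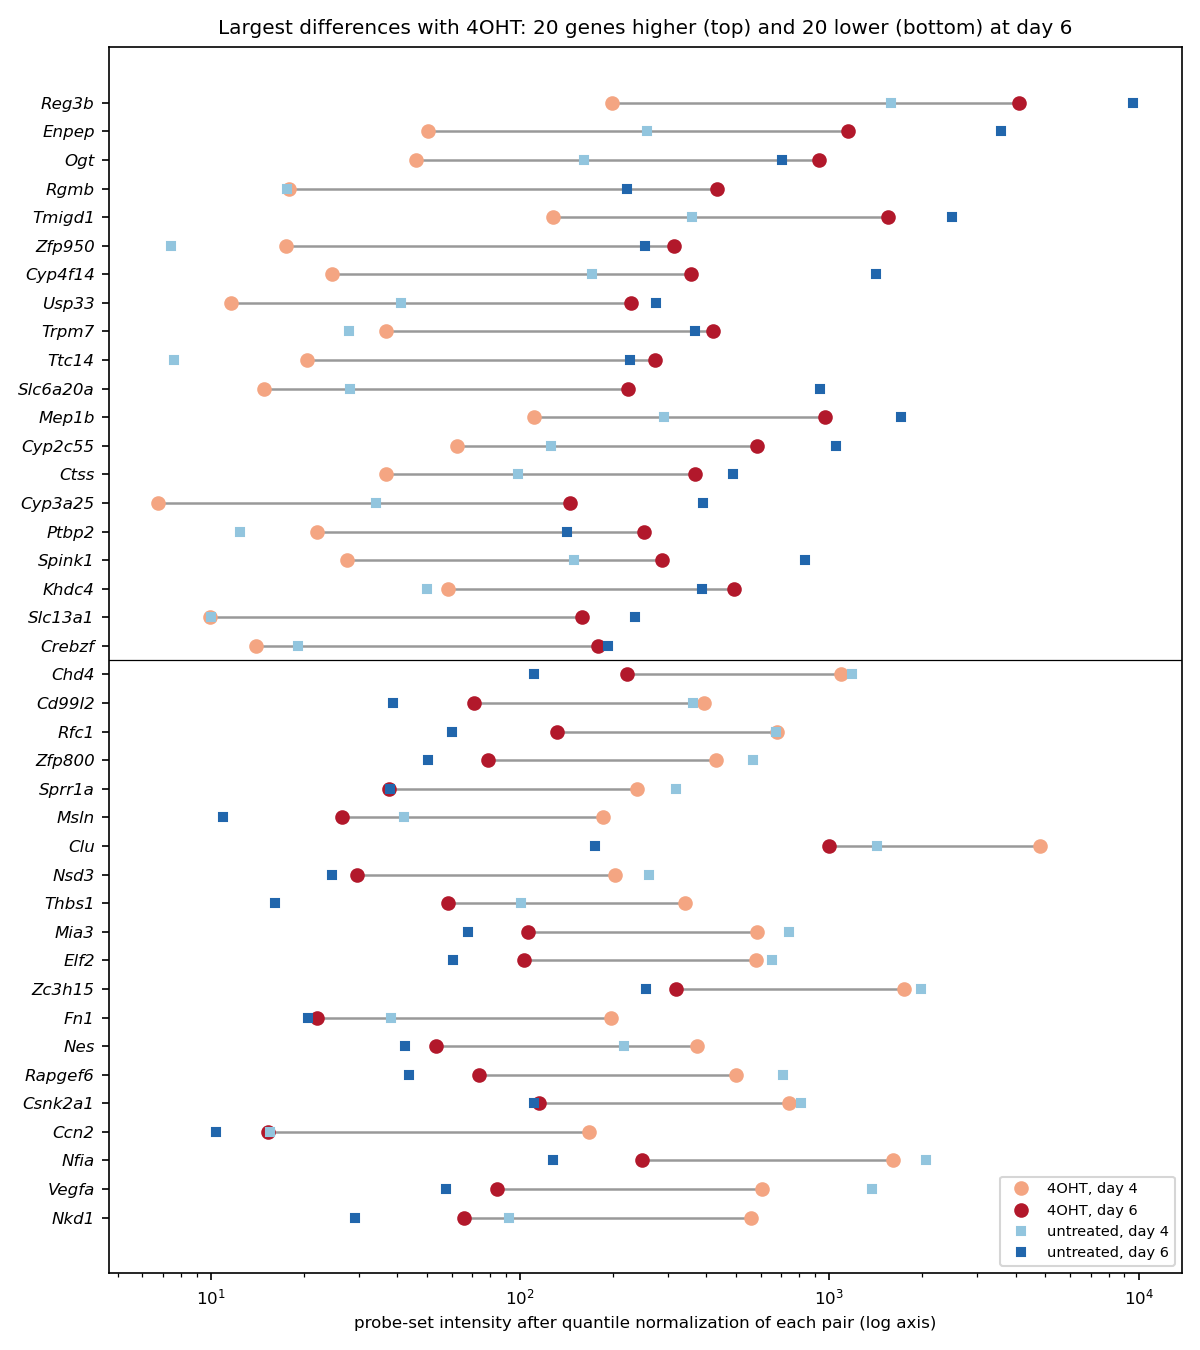
Intensities of 40 genes after quantile normalization of each pair of arrays (horizontal log axis), 1 gene a row, with circles joined by a line for the 4OHT arrays of day 4 (light) and day 6 (dark) and squares for the untreated arrays. The 20 genes above the line were higher at day 6 and the 20 below it lower at day 6, and in all 40 the untreated squares moved in the same direction, by only -0.26 in Ccn2.

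Absorptive enterocytes digest peptides and sugars at a brush border of microvilli. Of 21 brush border genes measured, all past the filter, 11 were at least 2-fold higher at day 6 with 4OHT (9.71% over all genes) and none was lower (8.07%), with a median difference of 1.16 beside -0.08 over all genes (1.52 as deposited, and 1.55 in the untreated pair). The meprin subunits Mep1b and Mep1a, zinc proteases of the microvillus, differed by 2.95 and 2.34. Mep1b had an intensity of 92.7 at day 4 and 1123 at day 6 with 4OHT, and 218 and 2085 without it. Dipeptidyl peptidase 4 (Dpp4) went from 33.9 to 362 with 4OHT, the maltase Mgam from 446 to 2221 and the sodium-glucose transporter Slc5a1 from 149 to 703. In the brightest probe set of each of these genes the untreated array was above the 4OHT array of the same day. The other Dpp4 probe sets past the filter gave 0.46 to 0.78. In the lowest of them the 4OHT array of day 4 (44.3) was above the untreated one (26.5). The transporters Slc7a9 (1.84), Slc2a2 (1.56), Slc6a19 (1.53) and Slc3a1 (1.46) and intestinal alkaline phosphatase (Alpi, 1.16) completed the 11 with Enpep. Lactase (Lct, 0.20), the fructose transporter Slc2a5 (-0.07) and the microvillus cadherin Cdhr5 (-0.26) lay near the all-gene median. In these bulk cultures, more cells of a type cannot be told apart from more RNA in each cell.

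Genes of lipid uptake and chylomicron assembly were higher in part. Of 19 measured (18 past the filter), 6 were 2-fold higher and none lower, beside 9.71% and 8.07% of all genes. Their median was 0.67 (0.97 untreated). Mttp, which loads lipid onto apolipoprotein B, went from 15.9 to 135 with 4OHT and from 55.6 to 802 without it. Fabp2, the intestinal fatty acid binding protein, differed by 1.88, Apoa1 by 1.78 (1.75 to 1.95 over its 4 probe sets) and Apob by 1.05, beside 2.70 untreated. Apoa4, an apolipoprotein of mature villus cells, had an intensity of 193 at day 4 and 404 at day 6 with 4OHT, and 909 and 1623 without it. Its difference of 0.53 missed 2-fold, and both 4OHT arrays stayed below both untreated ones.

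Cytochrome P450 enzymes oxidise steroids, fatty acids and foreign compounds in the mature enterocyte. They had the highest list median of the 39 lists examined, 1.95 with 4OHT (2.23 as deposited, 1.82 untreated). Of 16 measured, 14 passed the filter, 10 were 2-fold higher and none was lower, beside 9.71% and 8.07% of all genes. Cyp4f14 had an intensity of 25.6 at day 4 and 418 at day 6 with 4OHT, and 128 and 1749 without it, and Cyp3a11, a major drug oxidase, 21.8 at day 4 and 244 at day 6 with 4OHT, and 97.3 and 967 without it. The 4OHT array of day 4 was the lowest of the 4 in both genes, and the untreated array of day 6 the highest. Cyp2c55 (2.93), Cyp3a25 (2.82), Cyp2c65 (2.51), Cyp2j6 (2.16), Cyp2d26 (1.99), Cyp3a13 (1.98), Cyp4v3 (1.92) and Cyp4b1 (1.78) were the others. Cyp2s1 (-0.82), Cyp27a1 (-0.46) and Cyp1b1 (-0.21) were below 0.

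HNF4 factors are nuclear receptors of the enterocyte known to act at many digestion and P450 genes. The promoters below, from RefSeq on GRCm38.p6 and running from 250 bases before to 50 after the start of transcription, are shown because they belong to genes higher at day 6 and hold the motif CAAAGTCCA, marked in capitals. Slc3a1 lies at chr17:85028097-85028396, plus strand, and Cyp3a11 at chr5:145879805-145880104, minus strand.
Slc3a1: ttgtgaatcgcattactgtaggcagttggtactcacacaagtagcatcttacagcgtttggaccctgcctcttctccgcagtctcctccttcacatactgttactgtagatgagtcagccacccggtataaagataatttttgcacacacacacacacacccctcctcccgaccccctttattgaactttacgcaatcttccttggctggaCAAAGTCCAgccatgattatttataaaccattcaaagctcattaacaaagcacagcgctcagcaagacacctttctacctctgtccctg
Cyp3a11: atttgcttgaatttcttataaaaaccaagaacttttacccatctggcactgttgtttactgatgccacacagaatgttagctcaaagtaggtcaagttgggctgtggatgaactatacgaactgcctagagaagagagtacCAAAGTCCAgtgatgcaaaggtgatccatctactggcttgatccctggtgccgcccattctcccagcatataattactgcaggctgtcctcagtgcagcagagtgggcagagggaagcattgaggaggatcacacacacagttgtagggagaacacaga
On either strand the motif was found in promoters of 3 of 20 brush border genes (Alpi, Treh and Slc3a1) and of 2 of 16 P450 genes (Cyp3a11 and Cyp2c65). Over all genes with a promoter of this length the share was 0.555%, and over all 32851 promoters it was 0.475%. Of the genes with a match, Treh differed by only 0.58. A match describes the letters and is not evidence that the factor binds there.

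Crypt base columnar cells are the Lgr5-positive stem cells at the crypt bottom. All of their 18 markers were measured and 16 passed the filter. With 4OHT 9 were 2-fold higher at day 6 and 1 was lower, beside 9.71% and 8.07% of all genes. The median was 1.08 (1.55 as deposited, 0.53 untreated), but it was 0.47 when all probe sets of a gene were averaged. Olfm4, a secreted glycoprotein of these cells read by 1 probe set, had an intensity of 839 at day 4 and 6266 at day 6 with 4OHT, and 833 and 4167 without it. The 4OHT array of day 6 was the highest of the 4, and the differences were 2.48 with 4OHT and 1.70 without it.

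Lgr5, the R-spondin receptor that names these cells, had an intensity of 313 at day 4 and 1186 at day 6 with 4OHT, and 254 and 597 without it, a difference of 1.40 with 4OHT and 0.48 without it. Its second probe set gave -0.19. The chloride transporter Slc12a2 went from 387 to 2632 with 4OHT (2.30, with -0.40 in its lowest of 3 probe sets), and the growth factor restraint Lrig1 from 91.6 to 873 (2.61, with 0.28 in its lowest of 3 probe sets). Smoc2 was divided, at 1.86 and -1.55. Cdca7 (1.88) and Aqp4 (1.83, and -0.50 in its lowest of 3) were higher, the stem cell transcription factor Ascl2 (0.18) and Msi1 (0.12) were near 0, and the receptor Tnfrsf19 was lower (-1.02, and 0.52 in a second probe set).

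Wnt target genes moved in both directions. Of 26 measured (21 past the filter), 7 were 2-fold higher and 3 lower, beside 9.71% and 8.07% of all genes. Their median of -0.06 changed sign with the scaling, between -0.09 and 0.0080. Relative to the all-gene median of each scaling it was 0.0022 to 0.020. The higher group held the proto-oncogene Myc, with an intensity of 81.2 at day 4 and 419 at day 6 with 4OHT, and 122 and 355 without it, the ubiquitin ligase Znrf3, which removes Wnt receptors (1.71, and -0.01 in a second probe set), and the potassium channel subunit Kcne3 (2.05). Axin2, a scaffold of the destruction complex and a direct target, had an intensity of 163 at day 4 and 628 at day 6 with 4OHT, and 89.5 and 332 without it in its brightest probe set, with each 4OHT array above its untreated counterpart. That probe set differed by 1.39 with 4OHT and its other one by -1.51, so no direction is given for Axin2. Counts of called genes use the brightest probe set and hold Axin2 as higher. The lower genes were Nkd1, the secreted Wnt deacylase Notum (-1.03, and -0.66 untreated) and Tnfrsf19. As deposited only Nkd1 of these 3 was 2-fold lower, with Notum at -0.77 and Tnfrsf19 at -0.89. Cyclin D1 (Ccnd1) went from 1786 to 1190.2 (-0.98), Sox9 from 264 to 234 (-0.64), Ephb3 from 509 to 517 (-0.44), and the adhesion receptor Cd44 from 201 to 546 (0.89). None of them differed by 2-fold after quantile normalization, though the deposited intensities of Cd44 were more than 2-fold apart.

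Regenerating and fetal-type epithelium is marked by clusterin and annexins. All 11 genes of this list that were measured, 9 of them past the filter, were below 0 with 4OHT. Of these 3 were 2-fold lower, beside 8.07% of all genes, and the median was -0.57 (-0.38 as deposited, -1.20 untreated). Beside Clu and Msln, annexin A1 (Anxa1) had an intensity of 901 at day 4 and 587 at day 6 with 4OHT, and 509.6 and 161 without it, a difference of -1.04 (-0.60 as deposited), and its 2 probe sets agreed. The untreated array of day 6 was the lowest of the 4. Cathepsin L (Ctsl, -0.82) and keratin 7 (Krt7, -0.59) did not reach 2-fold.

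YAP is a co-activator that responds to cell stretch and contact and acts through TEAD factors. Of 17 of its targets measured (15 past the filter), 16 were below 0. Of them 4 were 2-fold lower and 1 was higher, beside 8.07% and 9.71% of all genes. The median was -0.47 (-0.39 as deposited, -0.26 untreated, and -0.17 over all probe sets). Ccn2, the connective tissue growth factor, had an intensity of 137 at day 4 and 13.7 at day 6 with 4OHT, and 17.3 and 8.71 without it. The 4OHT array of day 4 stood alone, and the difference was -2.55 with 4OHT beside -0.26 without it. Thrombospondin 1 (Thbs1) had 283 at day 4 and 65.6 at day 6 with 4OHT, and 78.8 and 14.4 without it, a difference of -2.26, but its second probe set gave 0.36. Ankrd1 went from 34.3 to 6.96 and the small chaperone Cryab from 32.2 to 6.18 with 4OHT, so that their day-6 levels lay under the 20.9 of the filter. Ccn2, Ankrd1 and Cryab passed the filter only through the 4OHT array of day 4, which favours a lower day-6 value. Their count as lower is therefore no independent evidence. Ccn1 (-0.47), Amotl2 (-0.76) and Lats2 (-0.55) were lower by less than 2-fold, and the growth factor epiregulin (Ereg, 1.33) was the gene that was higher.

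The Ankrd1 promoter, at chr19:36119795-36120094, minus strand of GRCm38.p6 in RefSeq, is shown because it holds 2 copies of the TEAD motif GGAATG, in capitals.
Ankrd1: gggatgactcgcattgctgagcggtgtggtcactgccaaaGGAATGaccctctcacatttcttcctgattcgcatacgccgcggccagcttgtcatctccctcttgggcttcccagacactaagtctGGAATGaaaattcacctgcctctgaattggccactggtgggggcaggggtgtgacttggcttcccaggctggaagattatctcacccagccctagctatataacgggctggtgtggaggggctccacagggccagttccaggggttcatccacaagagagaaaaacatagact
The motif, on either strand, was in a promoter of 8 of the 12 YAP and TEAD targets with a promoter here. Over all genes with a promoter the share was 16.6%, and over all promoters it was 14.7%. Ptpn14 (-0.19) and Ajuba (-0.15) hold it too and differed little between the days. The list holds known targets of YAP and TEAD, so this share is no independent evidence. A match is not evidence that the factor binds there.

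**Figure D4:**
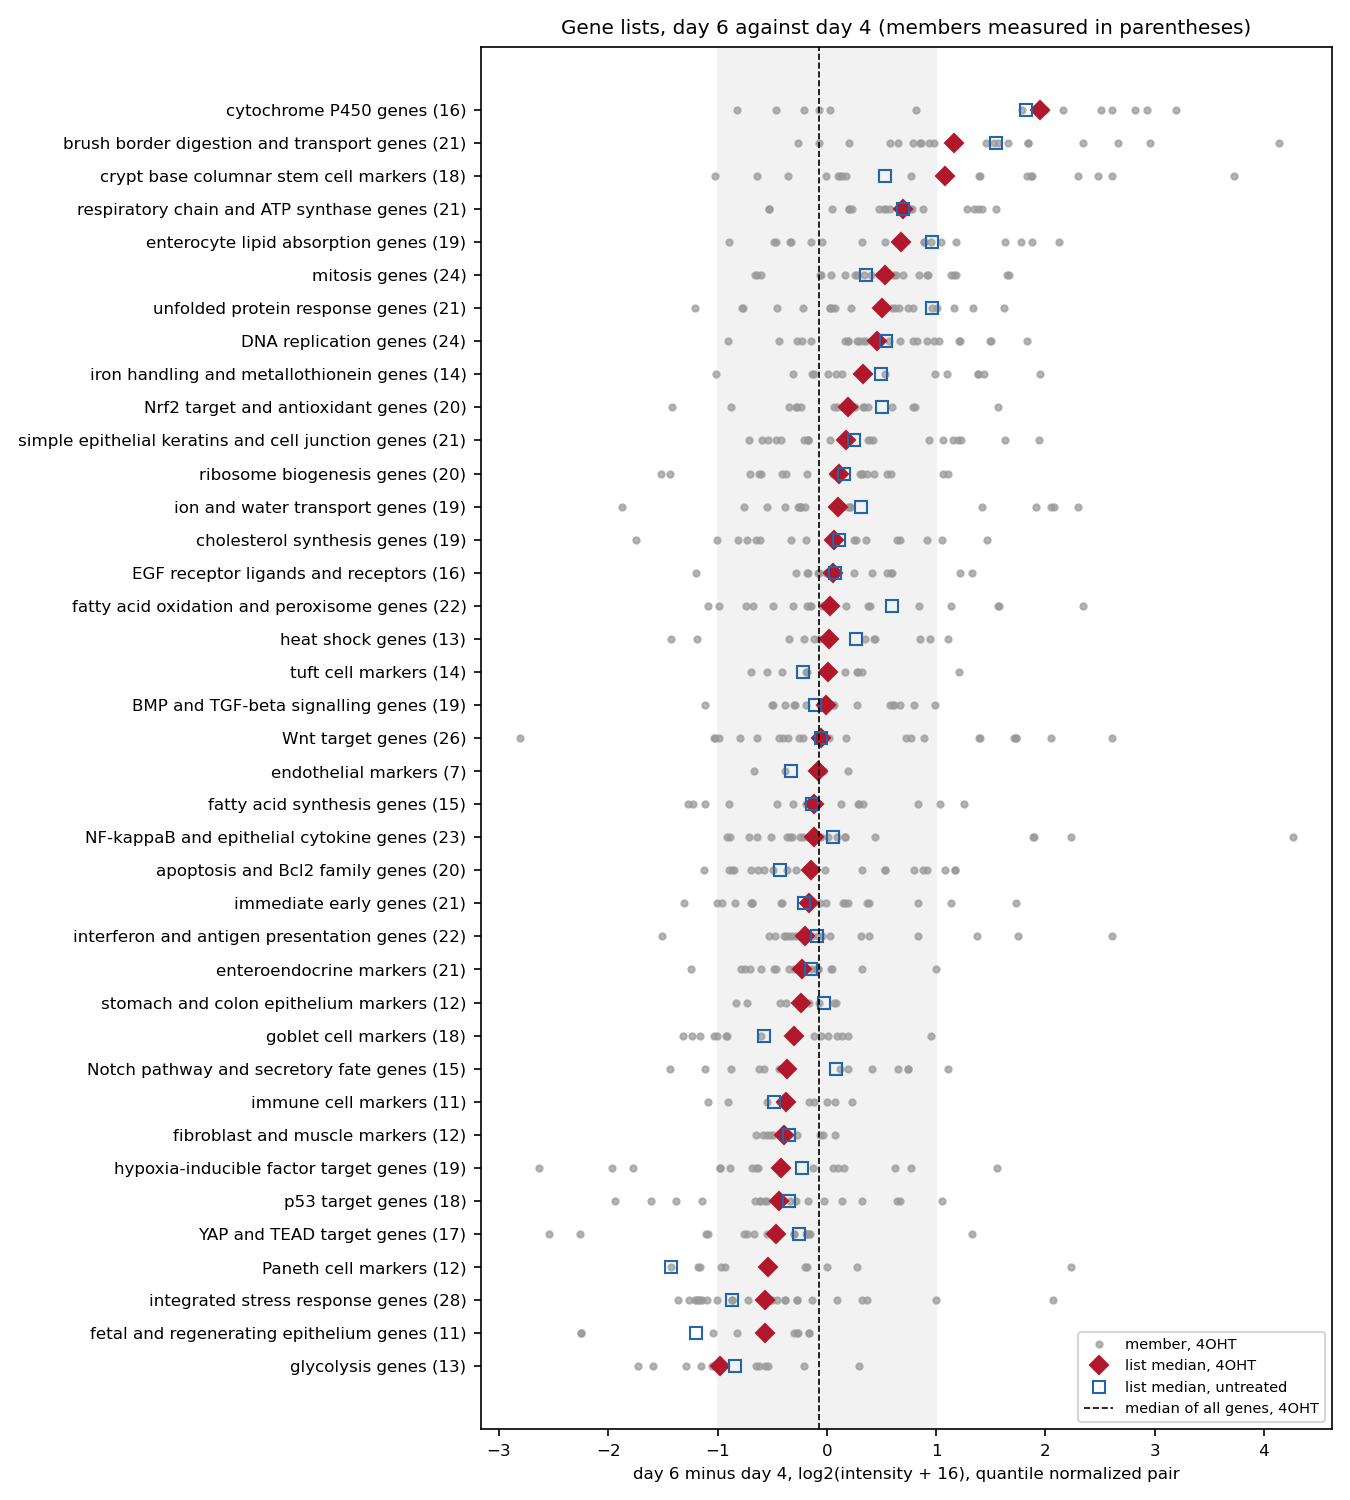
The difference between day 6 and day 4 in log2(intensity + 16) after quantile normalization (horizontal axis) for the members of 39 gene lists (rows, members measured in parentheses), with grey points for members and red diamonds for list medians with 4OHT, open blue squares for the medians in untreated organoids, the dashed line at the all-gene median of -0.08, and differences under 2-fold shaded. The medians ran from -0.97 for glycolysis to 1.95 for cytochrome P450 genes, and those of Paneth cell markers differed most in the 2 arms, -0.54 and -1.42.

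Paneth cells guard the crypt with antimicrobial proteins. Of their 12 markers measured (11 past the filter), 3 were 2-fold lower and 1 was higher with 4OHT, beside 8.07% and 9.71% of all genes. The median was -0.54 (-0.31 as deposited). In the untreated pair 7 were 2-fold lower, beside 12.8% of all genes, with a median of -1.42. In 9 of the 12 the 4OHT difference lay above the untreated one. This contrast between the arms was not tested. Lysozyme 1 (Lyz1) had an intensity of 23229.6 at day 4 and 23910.3 at day 6 with 4OHT, and 17233 and 8766 without it, a difference of 0.00 with 4OHT and -1.12 without it, although Lyz1 sits at the top of the array's range, where quantile normalization fixes the values of the pair. Ang4, an antimicrobial ribonuclease, had 9855 at day 4 and 7629 at day 6 with 4OHT, and 4838 and 999 without it, and the matrix metalloprotease Mmp7, which activates defensins, 3449 at day 4 and 2282 at day 6 with 4OHT, and 1146 and 340.4 without it. In both the untreated array of day 6 was the lowest and the 4OHT array of day 4 the highest. Mptx1 (-1.43), Nupr1 (-1.18) and Spink4 (-1.16) were lower, of which only Mptx1 was 2-fold lower as deposited. Mptx1 passed the level filter only through the 4OHT array of day 4, which favours a lower day-6 value. Reg3g, a lectin that enterocytes also make, was higher (2.24, and 3.62 untreated).

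Goblet cells secrete the mucus layer. Of 18 markers (17 past the filter) 5 were 2-fold lower and none higher, beside 8.07% and 9.71% of all genes. Their median was -0.30 (-0.12 as deposited). Mucin 2 (Muc2), the gel-forming mucin, had an intensity of 629 at day 4 and 708 at day 6 with 4OHT, and 352 and 379 without it, and its difference of -0.29 turned to 0.17 as deposited. The lower genes were the goblet transcription factor Spdef, which went from 163 to 105, Bcas1 (-1.03), Spink4 and the chemokines Ccl6 (-1.23) and Ccl9 (-1.32, and -0.0059 in a second probe set). As deposited none of the 5 was 2-fold lower, with differences of -0.91 to -0.56. Trefoil factor 3 (Tff3, -0.60) and Foxa3 (-0.92) did not reach 2-fold.

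Hormone-producing and tuft cells gave little beside the 9.71% higher and 8.07% lower over all genes. Of 21 enteroendocrine markers, 1 was 2-fold lower, secretin (Sct), which went from 145 to 74.7 with 4OHT (-1.24, and -0.83 as deposited), and 17 were below 0, with a median of -0.22. The endocrine progenitor factor Insm1 went from 15.4 to 46.8 and, on the log2(intensity + 16) scale, stopped just short of 2-fold. Of 14 tuft cell markers, 1 was 2-fold higher, the signalling regulator Rgs13 (1.21), and the median of 0.01 changed sign with the scaling. Relative to the all-gene median of each scaling, the tuft median was 0.029 to 0.085. Of 15 Notch pathway and secretory fate genes (14 past the filter), 1 was 2-fold higher and 2 lower, near those shares of all genes. The median of -0.36 also changed sign with the scaling. The Notch ligand Dll1 was higher (1.11), Notch target Hes1 differed by 0.74, and the secretory fate factor Atoh1 by 0.19. Hes5 (-1.11, and 0.16 in a second probe set) and Notch2 (-1.43, and 0.995) were divided.

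DNA replication and mitosis genes were higher in part, against a background of 9.71%. Of 24 replication genes, all past the filter, 6 were 2-fold higher and none lower, with a median of 0.46 (0.94 as deposited, 0.54 untreated). The helicase subunit Mcm4 had an intensity of 136 at day 4 and 733 at day 6 with 4OHT, and 96.9 and 545 without it, and its 2 probe sets gave 1.83 and 2.25. The sliding clamp Pcna went from 379.9 to 1499 with 4OHT (2.83-fold, and 0.80 on the log2 scale untreated) and the origin licensing factor Cdc6 from 31.3 to 140.0 (2.82-fold). Mcm5 (1.22, and -0.28 in its lowest of 3 probe sets), cyclin E2 (Ccne2, 1.21) and thymidylate synthase (Tyms, 1.02) were the others.

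Of 24 mitosis genes, 5 were 2-fold higher and none lower, with a median of 0.53. The motor Kif20a (1.67), the checkpoint kinase Bub1 (1.65) and Aurora kinase B (Aurkb, 1.18) led them, with topoisomerase Top2a (1.16) and the spindle factor Tpx2 (1.13, and -0.29 in its lowest of 4 probe sets). Mki67, the common proliferation marker, had an intensity of 770.5 at day 4 and 671 at day 6 with 4OHT, and 677 and 657 without it. Its difference of -0.65 went against the list, and as deposited it was -0.19.

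Energy metabolism showed its 2 branches on opposite sides. Of 21 respiratory chain and ATP synthase genes, all past the filter, 5 were 2-fold higher and none lower, beside 9.71% and 8.07% of all genes. Their median was 0.70 (1.10 as deposited, 0.69 untreated). The ATP synthase beta subunit Atp5b had an intensity of 707 at day 4 and 2761 at day 6 with 4OHT, and 1115 and 4138 without it, and succinate dehydrogenase Sdha went from 251 to 967 with 4OHT. Ndufs1 (1.38), Ndufa4 (1.35) and Sdhd (1.29) were the others.

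Glycolysis genes had the lowest median of all lists, -0.97 (-0.58 as deposited, -0.84 untreated). Of 13 measured, 12 passed the filter, 12 were below 0, 6 were 2-fold lower and none was higher, beside 8.07% of all genes. Pgk1, phosphoglycerate kinase, had an intensity of 3189 at day 4 and 1660.5 at day 6 with 4OHT, and 4040.0 and 3117 without it. The 4OHT array of day 6 was the lowest of the 4, and all 3 Pgk1 probe sets lay between -1.34 and -0.92. Phosphofructokinase Pfkl had 111 at day 4 and 29.9 at day 6 with 4OHT, and 102 and 71.9 without it, again lowest with 4OHT at day 6, and -1.73 to -0.64 over its 3 probe sets. Pyruvate kinase Pkm went from 519.8 to 231 with 4OHT (-1.59), triosephosphate isomerase Tpi1 from 2045 to 1207 (-1.15), aldolase Aldoa from 1327 to 854 (-1.05, with all 5 probe sets between -1.63 and -1.02), and hexokinase Hk1 from 93.3 to 51.6 (-1.02). Lactate dehydrogenase Ldha (-0.54) and the glucose transporter Slc2a1 (-0.97) were lower by less than 2-fold, and hexokinase 2 (Hk2, 0.30) was above 0. As deposited, Pfkl (-1.47) and Pkm (-1.12) were past 2-fold, and the other 4 were between -0.93 and -0.63.

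Hypoxia-inducible factors switch on glycolysis and a set of survival genes when oxygen is low. Of 19 targets (18 past the filter), 3 were 2-fold lower and 1 higher, beside 8.07% and 9.71% of all genes, with a median of -0.42 (-0.16 as deposited). Bnip3, a mitophagy receptor, had an intensity of 196 at day 4 and 65.3 at day 6 with 4OHT, and 414 and 315 without it. The prolyl hydroxylase Egln3, a feedback sensor of oxygen, had 269.7 at day 4 and 82.1 at day 6 with 4OHT, and 659 and 366 without it. In both genes each 4OHT array was below the untreated array of its day and each day-6 array below the day-4 array of its arm. Vegfa was the third, with a second probe set at 0.53, and all 3 were also 2-fold lower as deposited. The histone demethylase Kdm3a was higher (1.56) and the carbonic anhydrase Car9 differed by 0.62.

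The hypoxia response core ACGTG was searched on both strands, where its palindrome CACGTG counts as 2 overlapping matches. It was found in promoters of 10 of 13 glycolysis genes and 14 of 17 hypoxia targets that had a promoter sequence. Over all genes with a promoter the share was 21.8%, and over all promoters it was 19.6%. These 2 promoters, from RefSeq on GRCm38.p6, are shown with it in capitals, since their genes were lower at day 6 in their only or in all probe sets. Pgk1 lies at chrX:106186850-106187149, plus strand, and Bnip3 at chr7:138909457-138909756, minus strand.
Pgk1: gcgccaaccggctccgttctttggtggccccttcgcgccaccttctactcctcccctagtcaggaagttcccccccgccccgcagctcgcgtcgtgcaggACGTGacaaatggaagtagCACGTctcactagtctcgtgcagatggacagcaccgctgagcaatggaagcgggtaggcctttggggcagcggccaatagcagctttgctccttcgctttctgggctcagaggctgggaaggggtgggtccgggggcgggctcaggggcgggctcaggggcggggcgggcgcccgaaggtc
Bnip3: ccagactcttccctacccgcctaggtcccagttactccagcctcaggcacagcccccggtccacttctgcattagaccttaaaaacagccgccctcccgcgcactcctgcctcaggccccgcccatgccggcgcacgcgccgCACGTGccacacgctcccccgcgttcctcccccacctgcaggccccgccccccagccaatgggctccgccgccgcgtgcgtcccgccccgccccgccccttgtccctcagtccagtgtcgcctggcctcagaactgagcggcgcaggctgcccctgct
The lists hold known targets of the factor, so these shares are no independent evidence. Genes with the core did not all differ between the days. P4ha1 (0.05) and Mxi1 (0.10) hold it and were near 0, while Pfkl (-1.73) and Tpi1 (-1.15), without it in this window, were lower.

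The integrated stress response raises amino acid synthesis and transfer RNA charging through the factor ATF4. All of its 28 genes were measured and 26 passed the filter. With 4OHT 9 were 2-fold lower and 2 higher, beside 8.07% and 9.71% of all genes. Their median was -0.56 (-0.29 as deposited, -0.86 untreated). The mitochondrial folate enzyme Mthfd2 had an intensity of 303 at day 4 and 156 at day 6 with 4OHT, and 272 and 117 without it, and its 2 probe sets gave -1.36 and -1.28. Serine synthesis enzyme Phgdh had 884 at day 4 and 534 at day 6 with 4OHT, and 631 and 242 without it, with all 4 probe sets between -1.33 and -1.12. The synthetases Wars (-1.26), Aars (-1.20) and Sars (-1.19), the transcription factors Ddit3 (-1.15) and Atf3 (-1.002), Nupr1 and the secreted Stc2 (-1.09) made up the 9. The cystathionine lyase Cth (2.07) and the amino acid transporter chain Slc3a2 (1.003) were higher. As deposited, none of the 9 was 2-fold lower, with differences of -0.90 to -0.59.

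Genes of the unfolded protein response, which serves the folding of secreted proteins, were on the other side. Of 21, all past the filter, 4 were 2-fold higher and 1 lower, beside 9.71% and 8.07% of all genes. Their median was 0.50, and 0.13 over all probe sets. The chaperone calnexin (Canx) went from 231 to 1032 with 4OHT (1.62, at least 1.21 in all 3 probe sets), followed by Dnajb9 (1.33), Syvn1 (1.16) and Herpud1 (1.01, and -0.07 in a second probe set). Ern2, an epithelial stress sensor, was lower (-1.21, -0.77 as deposited and -2.51 untreated). In 19 of the 21 the 4OHT difference was below the untreated one, whose median was 0.96, and the same held for 18 of 20 Nrf2 and antioxidant genes, with medians of 0.19 and 0.50. These contrasts between the arms were not tested.

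Targets of p53 differed in both directions. Of 18 (17 past the filter), 4 were 2-fold lower and 1 higher, beside 8.07% and 9.71% of all genes. Their median was -0.44 (-0.11 as deposited), and of the 4 only Sesn2 and Mdm2 were 2-fold lower as deposited. The cell cycle inhibitor Cdkn1a had an intensity of 547 at day 4 and 337 at day 6 with 4OHT, and 625 and 502 without it, and the stress sensor Sesn2 102 at day 4 and 30.2 at day 6 with 4OHT, and 94 and 29.7 without it. The day-6 array was below the day-4 array in both arms for Sesn2 and for the brightest Cdkn1a probe set. A second Cdkn1a probe set had 138 at day 4 and 155 at day 6 with 4OHT, and 234 and 325 without it. Its difference with 4OHT was -0.32 after quantile normalization and 0.15 as deposited. Btg2 (-1.38, and 0.08 in a second probe set) and the p53 ligase Mdm2 (-1.93, and 0.21) were divided, and Sesn1 was higher (1.06, 0.59 to 1.52 over 4 probe sets).

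The difference with 4OHT exceeded that without it by at least 1 on the log2 scale in 256 genes and lay at least 1 below it in 318, with no test of either. The 8 genes with the largest excess held Reg3b, Ogt and the ubiquitin ligase Peli1, whose intensity was 12.6 at day 4 and 111 at day 6 with 4OHT, and 69.6 and 147 without it, a difference of 2.04 against 0.39. In the brightest probe sets of Peli1 and Mmd (1.63 against 0.17) the 4OHT array of day 4 was the lowest of the 4. The other Peli1 probe set past the filter gave 1.03 against 1.31, and those of Mmd -0.20 against 0.57 and 0.81 against 1.08, so that none of them showed the excess.

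On the other side stood 8 genes, several of which were high only on the 4OHT array of day 4. Itpripl2 was not, with 153 at day 4 and 90.6 at day 6 with 4OHT, and 121 and 222 without it. Lrrc26 had 155 at day 4 and 88.4 at day 6 with 4OHT, and 41.9 and 82.3 without it. Ptgs2, the inducible prostaglandin synthase, had an intensity of 70.9 at day 4 and 5.56 at day 6 with 4OHT, and 8.71 and 6.73 without it, a difference of -2.16 against 0.04. Ptgs2 passed the level filter only through the 4OHT array of day 4, which favours a lower day-6 value. The actin-binding protein caldesmon (Cald1) went from 64 to 16.4 with 4OHT (-1.42 against -0.13). In their brightest probe sets Ccn2, Fn1 and Nkd1, described above, had the same form, with the other 3 arrays well below. A second probe set gave -0.49 against -0.72 for Fn1 and -0.20 against -1.05 for Nkd1, so that neither showed the lower difference with 4OHT. In both the untreated array of day 4 was above the 4OHT one. The fibroblast and muscle markers, which were summed above, were at 302 on the 4OHT array of day 4 and at 316 on the untreated array of the same day. Col1a1, their collagen, went from 24 to 12 with 4OHT. Their part in these values was not tested.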

How the data were processed

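RNA from each group of organoids was hybridized to 1 Affymetrix expression array, after biotin labelling of copies made from 100 ng of total RNA and primed at the 3′ end, per the labels' protocols. The deposited values are linear intensities, already summarised by the authors to 1 value per probe set. Their background correction, normalization and summarisation are not given in the sources used here, which leaves the scaling of day 4 to day 6 unknown. Intensities ran from 2.73 to 23910.3, and no detection calls were used.

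Of 45101 probe sets, 34958 name 1 gene in GEO's platform annotation, 932 name several and 9211 are not named by it. Only those with 1 gene were used, 34754 of which matched a current gene record, with no symbol changed. Each gene was read from the probe set with the highest mean intensity over the 4 arrays. The level filter kept genes that on at least 1 of the 4 arrays reached the median of all values, 20.9. The 4OHT pair and the untreated pair were each quantile normalized without the 64 control probe sets, and day 6 minus day 4 was taken of log2(intensity + 16). A gene counted as higher or lower at 2-fold or more. With 1 array a group there is no p-value, and precision is limited by the number of arrays. The counting steps were tested on simulated data.

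The comparison, the 39 gene lists (760 entries, 702 measured) and the rules were chosen with earlier results of these data known, and are not independent evidence. Named genes were the 20 with the largest differences each way that were also 2-fold as deposited, the 8 each way with the largest excess over the untreated difference, up to 4 members of each list and any other at 2-fold, and Apc, Lgr5, Axin2, Clu, Muc2, Lyz1, Apoa4 and Mki67. Clone names and predicted genes were passed over, and other list members are named after their values were seen. Motifs were searched in RefSeq promoters of GRCm38.p6, matched by gene identifier, and no genome was used. Alternatives were the deposited scaling, median centring, quantile normalization of all 4 arrays, pseudocounts of 1 and 64, other level filters, other choices of probe set and thresholds of 1.5-fold and 3-fold. Python 3.11.15, numpy 2.4.6, pandas 2.3.3 and matplotlib 3.10.9 were used.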

Additional observations from a re-analysis of the deposited data

Results flagged for a closer look

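Among the genes named for the largest excess between the arms, 8 went opposite ways in the 2 arms between the days. Other named genes did so too, such as Ctsl at -0.82 with 4OHT and 0.48 untreated. Selection on the excess favours the 8, and these differences between single arrays were not tested. With 4OHT, Atm, a kinase of the DNA damage response, differed by 1.10 and untreated by -0.56, with intensities of 73.7 at day 4 and 244 at day 6 with 4OHT, and 148 and 159.5 without it in its brightest probe set. The second Atm probe set gave 0.66 with 4OHT and 1.30 untreated, so that the opposite directions rest on 1 probe set. Mdc1, an adaptor at DNA breaks, differed by 1.002 and -0.78, the ribosomal RNA methyltransferase Dimt1 by 1.003 and -0.49, and Fam185a by 1.44 and -0.04. In the brightest probe sets of these 4 genes the 4OHT array of day 4 was the lowest of the 4 arrays. Downward with 4OHT, Ptgs2 differed by -2.16 and untreated by 0.04, Lrrc26 by -1.14 and 0.43, Itpripl2 by -1.10 and 0.13, and Fam71e1 by -1.04 and 0.21 (-0.48 and -0.24 in its second probe set).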

How the results depend on the processing

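No paired analysis was possible because each group was 1 array. The counts of higher and lower genes, 1281 and 1065, changed with the scaling, the threshold and the choice of probe set. They were 2216 and 370 as deposited and 2577 and 243 after median centring. With a pseudocount of 1 the lower genes numbered 1898, and with 64 the counts were 548 and 428. Averaging all probe sets that read a gene gave 723 and 395, a threshold of 1.5-fold 2577 and 3053, and one of 3-fold 384 and 168. Restricting to genes whose several probe sets all gave 1 direction, an alternative chosen after seeing the data, left 389 and 360. Quantile normalization of all 4 arrays, the other level filters and leaving out cross-hybridizing probe sets kept both counts within 1.5 times. With the mean of all probe sets, 4 named genes reversed, Axin2 to -0.060, Hsp90aa1 to 0.19, Scd2 to -0.14 and Sox4 to -0.67, because their probe sets disagree. Without probe sets ending in _x_at or _s_at, another probe set was read and Crat reversed to 0.018, Gkn3 to 1.03 and Zfp800 to 0.42. Each of 239 named genes was 2-fold higher, 2-fold lower or neither. As deposited 191 kept that call, 170 with a pseudocount of 64 and 159 with the mean of all probe sets. A sign change in a gene under 2-fold in both settings was counted as kept and not as reversed. Muc2 changed sign in this way as deposited, and Acta2 (-0.65 to 0.19) without probe sets ending in _x_at or _s_at. With 1 array a group, no spread between cultures or arrays is known, and dim genes near the level filter are the least certain.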

Other observations

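Other gene groups with 4OHT are given as values, and their counts stand beside 9.71% of all genes called higher and 8.07% called lower. The iron and metal genes held 5 that were 2-fold higher at day 6 and 1 lower of 14, with a median of 0.33. The ferroxidase hephaestin (Heph) went from 48.7 to 304 and metallothionein Mt2 from 904 to 3127 with 4OHT, differences of 1.95 and 1.38 beside 2.87 and 1.97 untreated. Among 19 ion transport genes 5 were higher and 1 lower. The chloride channel Cftr went from 74.2 to 498 (2.08) and the chloride-bicarbonate exchanger Slc26a3 from 17.2 to 120.4 (1.92, at least 1.08 in all 3 probe sets). Of 22 interferon and antigen presentation genes, 3 were higher and 1 lower, and beta-2 microglobulin (B2m), the light chain of class I molecules, had an intensity of 140.2 at day 4 and 1297 at day 6 with 4OHT, and 217 and 1688 without it. Both B2m probe sets agreed, at 2.61 and 2.19, whereas 1 of the 4 H2-K1 probe sets gave -0.74.

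The counts that follow also stand beside 9.71% higher and 8.07% lower over all genes. Fatty acid synthesis held 2 genes that were higher and 3 lower of 15, and as deposited none of the 3 was 2-fold lower. Fatty acid synthase (Fasn) went from 796 to 462 with 4OHT (-1.23, and -0.77 as deposited) and malic enzyme Me1 from 130.0 to 62.9 (-1.27, -0.38 untreated and -0.89 as deposited), while their regulator Srebf1 went from 231 to 686 (1.04, and 1.504 as deposited). In cholesterol synthesis Sqle differed by 1.05 and Mvd by -1.75, and the list of 19 held 2 higher and 2 lower. Of 22 fatty acid oxidation genes, 4 were higher and 1 lower, among them the pantetheinase Vnn1 at 2.34 and the peroxisomal enzyme Ehhadh at 1.58. Of 21 keratin and junction genes, 6 were higher and none lower, with occludin (Ocln) at 1.63. The small heat shock protein Hspb1 went from 99.2 to 35.3 (-1.43). The lists of ribosome biogenesis, EGF receptor, BMP and TGF-beta, apoptosis, immediate early, interferon, heat shock and NF-kappaB genes had medians between -0.20 and 0.11 and at most 4 members at 2-fold in either direction.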
